A study of Rattus norvegicus with 6 samples.

Results

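Slc2a3 and Gapdh, 2 genes of glucose use among the 29039 features counted, were followed in the ventromedial hypothalamus (VMH) of rats after predator odor (PO). Both carry a name in the study's deposited table of genes that differed between PO and control odor. Genes said below to be called by the study are those of this table or of a table in the paper. The paper's own list also asked for a fold change of 1.5, and Gapdh was only 1.20 times as high after PO here. Both genes were selected on their measured counts in the contrast of PO with control odor. Their difference between the odors is therefore given below as a description, with no p-value. Where the number of them that passed a threshold is given, the share of all genes that passed stands beside it and nothing is read from it. The PO group held 3 rats (P8, P13 and P14) that were given a piece of towel used as bedding by ferrets, and the control odor group held 3 rats (C2, C3 and C4) that were given a piece of clean towel. All 6 were male Sprague Dawley rats of about 10 months, all had been handled and given the control odor daily for 2 weeks beforehand, and each exposure lasted 20 min in the home cage. Bilateral micropunches of the VMH from each rat gave 1 poly-A RNA library, so each library is 1 animal. The labels give no batch.

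Glucose enters neurons mainly through GLUT3, the high-affinity carrier that Slc2a3 encodes, while GLUT1, another member of the carrier family, serves the blood-brain barrier and glia. Gapdh encodes glyceraldehyde-3-phosphate dehydrogenase, the glycolytic enzyme that oxidizes glyceraldehyde-3-phosphate and makes NADH, and it is so abundant in most tissues that it is widely used as a reference gene in PCR. In this study it was the reference gene of the PCR assays, which used other rats and other exposure times than these libraries. The VMH contains neurons whose firing follows the glucose level, and it takes part in the hormonal answer to low glucose. A punch of tissue mixes neurons, glia, vessels and any membrane at its edge, so fewer cells of a type and less RNA per cell cannot be told apart in these libraries.

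The libraries held 17479862 to 20316213 counted reads in the PO rats and 15835375 to 18370871 in the control odor rats. Reads mapped at 94.63 to 94.83% in PO libraries and 94.78 to 95.05% in control odor libraries. A gene name could be attached to 171 IDs only, each from a table of genes that the study had called in these libraries. None of the markers listed for neurons, VMH neurons, astrocytes, endothelium or blood cells had an ID in these tables, so the tissue label was not checked against them.

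Slc2a3 was low in every library and lowest after PO. P8 had 11 counts, P13 had 50 and P14 had 7, against 67 in C2, 68 in C3 and 103 in C4. P8 and P14 thus lay far below the controls, and P13 lay just under the lowest of them, so that the groups did not overlap. As CPM, a count relative to the total of its library, scaled with TMM, a factor that evens out library composition, Slc2a3 was 0.55 in P8, 2.76 in P13 and 0.419 in P14, against 3.79 in C2, 4.17 in C3 and 5.55 in C4. The mean was 1.24 ± 1.31 CPM after PO and 4.50 ± 0.926 CPM after control odor (SD, n = 3 each), a control mean 3.63 times the PO mean, and the SD of the PO rats was larger than their own mean.

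The 3 PO rats did not share 1 level of Slc2a3. The control odor mean was 10.8 times the level in P14 and 8.18 times that in P8, but only 1.63 times that in P13. With exact 95% binomial (Clopper-Pearson) intervals, which cover counting error only, Slc2a3 was 0.541 CPM of library size in P8 (0.27 to 0.969), 2.74 in P13 (2.03 to 3.61) and 0.4 in P14 (0.161 to 0.825), against 3.89 in C2 (3.02 to 4.94), 4.29 in C3 (3.33 to 5.44) and 5.61 in C4 (4.58 to 6.80). The interval of P13 overlapped those of C2 and C3 and lay above those of P8 and P14, while the intervals of P8 and P14 overlapped each other and lay below those of all 3 controls. Reads per rat were few, so the level within the 2 low rats is loosely fixed.

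Gapdh was abundant in every library and higher after PO. It had 49210 counts in P8, 41070 in P13 and 43142 in P14, against 34984 in C2, 33132 in C3 and 38734 in C4. In TMM-scaled CPM it was 2462 in P8, 2266 in P13 and 2581 in P14, against 1981 in C2, 2030 in C3 and 2088 in C4. All 3 PO rats lay above all 3 controls, and P13 was again the PO rat closest to them. The mean was 2436 ± 159 CPM after PO and 2033 ± 53.3 CPM after control odor (SD, n = 3 each), 1.20 times as high. Counting error was small at this depth. The 95% interval of the lowest PO rat, P13, was 2225 to 2268 CPM of library size, and that of the highest control, C4, was 2088 to 2130.

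**Figure D1:**
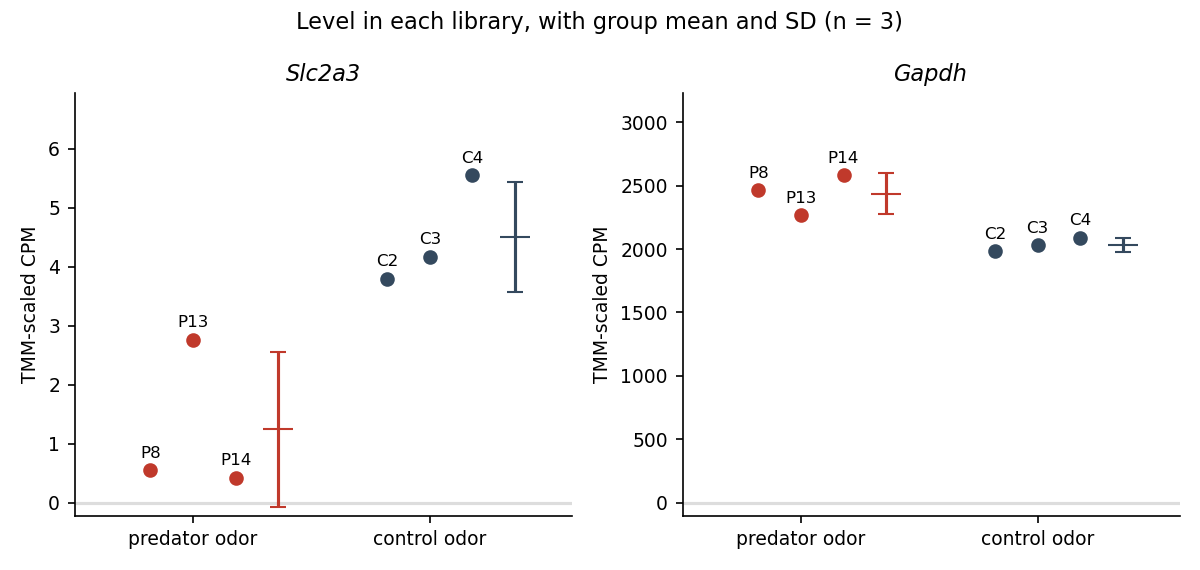
Level of Slc2a3 (left) and Gapdh (right) in each library, in TMM-scaled CPM, with PO rats in red and control odor rats in dark blue. Points are single rats and the bars beside them the group mean and SD (n = 3). Slc2a3 was 0.55, 2.76 and 0.419 CPM in P8, P13 and P14 and at least 3.79 CPM in each control odor rat, while Gapdh was at least 2266 CPM in each PO rat and at most 2088 CPM in each control odor rat.

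In the edgeR fit over 16685 genes, the log2 fold change of PO over control odor was -1.85 for Slc2a3 (standard error 0.66) and 0.26 for Gapdh (standard error 0.06), beside a median of -0.01 over all genes tested. By edgeR's quasi-likelihood test with Benjamini-Hochberg adjustment, 0 of the 2 genes passed an adjusted p of 0.05, a level reached by 59 genes in all, or 0.354% of those tested. At an unadjusted p under 0.05 in edgeR both passed, as did 19.8% of all genes. DESeq2 called both, with 6.31% of the 13707 genes it gave an adjusted p, and limma voom called neither, with 0.018% called in all. In the 6 DESeq2 fits that each left out 1 library, Slc2a3 was not called in 4 (without C2, C3, P8 or P14). In 2 (without C4 or P13) it was given no adjusted p, so neither a call nor its loss can be read there. Without P13 its DESeq2 log2 fold change was -3.20 (standard error 0.49). The DESeq2 call of Gapdh was lost without C2 and kept in the other 5 fits. These 6 fits called 212 to 747 genes over the whole table. Gapdh was among the 13% of genes for which every PO library lay above every control odor library, and Slc2a3 among the 13.2% for which every one lay below. Since both genes were chosen for this contrast, these shares are background and no more is read from them.

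The size of the Slc2a3 difference rested on P13. Without P13 its log2 fold change was -3.18 (standard error 0.35), and without any other single library it lay between -1.96 and -1.46. Gapdh moved less, with 0.32 without P13 and 0.22 to 0.28 without each other library. Without P13 edgeR called both genes, which were among the 266 called of 16989 tested. Without any other single library it called neither. The direction was the same under every setting run for either gene. All settings reuse the counts on which both genes were chosen, and the groups did not overlap. The shared direction was therefore largely fixed in advance. The difference of mean log2 values from the FPKM columns was -1.26 for Slc2a3 with a pseudocount of 1 and -2.19 with a pseudocount of 0.1, both on the log2(FPKM + pseudocount) scale, where the larger pseudocount shrinks a low gene more.

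**Figure D2:**
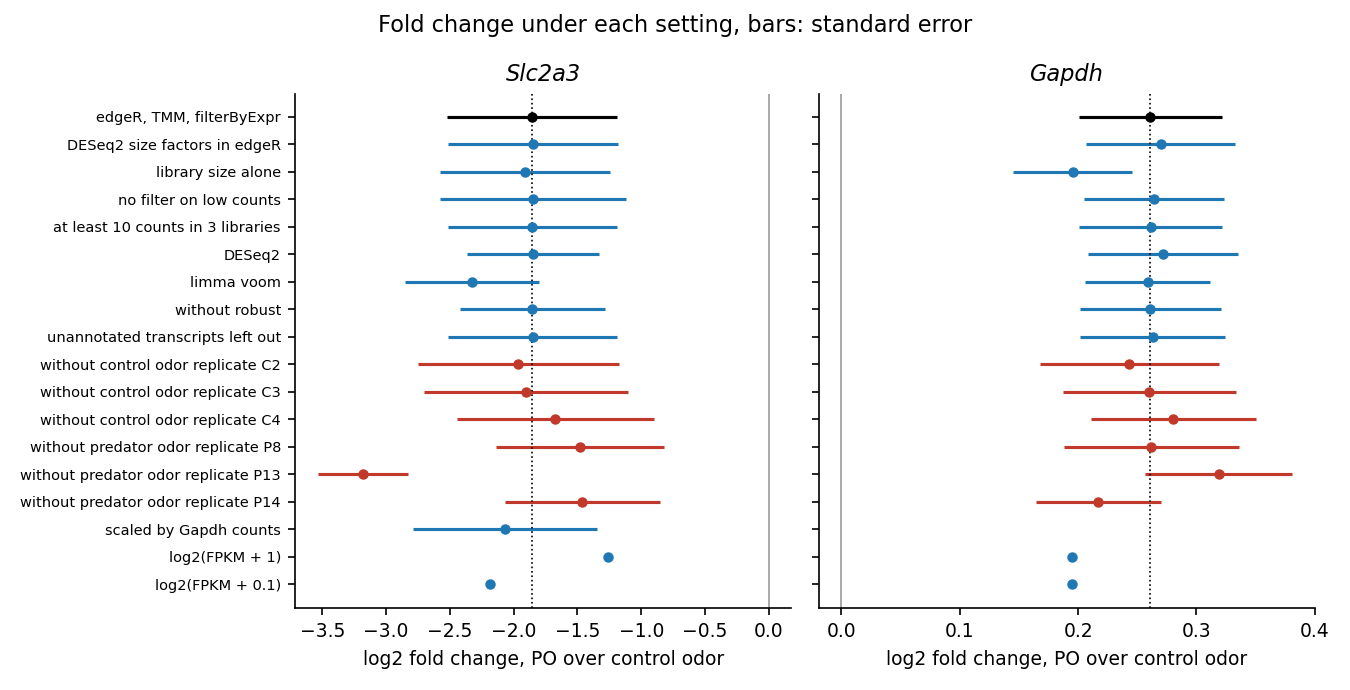
Log2 fold change of PO over control odor for Slc2a3 (left) and Gapdh (right), one row per setting, with the standard error as a bar where the fit gives one. The black point is the edgeR fit on all 6 libraries, marked by the dotted line, red points leave out 1 library and blue points change another choice; no row exists for Gapdh scaled by its own counts. For Slc2a3 the row without P13 stands apart at -3.18, and all other rows lie between -2.32 and -1.26, whereas for Gapdh all rows lie between 0.19 and 0.32.

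Levels of different genes can be compared only per length, for which the FPKM columns (fragments scaled by gene length and by the library's total count) serve. Slc2a3 had 0.365 FPKM in P8, 1.85 in P13 and 0.27 in P14, against 2.63 in C2, 2.90 in C3 and 3.78 in C4. Ranked among all 29039 features by FPKM, with 1 as the highest, it stood at 16954 in P8, 12506 in P13 and 17267 in P14, against 11651 in C2, 11353 in C3 and 10330 in C4. Between 19847 and 20153 features were above 0 in a library, so in P8 and P14 Slc2a3 lay in the lower part of the detected features. Gapdh had 1898 FPKM in P8, 1761 in P13 and 1934 in P14, against 1592 in C2, 1640 in C3 and 1652 in C4. It ranked between 23 and 25 in the PO libraries and between 26 and 27 in the control odor libraries. Gapdh alone took 0.242, 0.225 and 0.247% of the counts in P8, P13 and P14, against 0.203, 0.209 and 0.211% in C2, C3 and C4.

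The length that turns counts into FPKM was 1482 bases for Slc2a3 and 1276 bases for Gapdh, beside a median of 1688 bases over the 22185 features above 0. The Slc2a3 length is a whole number of codons, as are 49.8% of the lengths of Ensembl genes in the table. Whether its gene model lacks untranslated sequence, so that reads from there went uncounted, is stated nowhere in the sources used here and was not tested. Such a lack would bear on the level of Slc2a3. The gene model is the same in all 6 libraries, but the share of reads lost in each was not tested. Gapdh is uncertain in another way. In RefSeq for the GRCr8 assembly, 81 entries carry a symbol of the form Gapdh-ps, 79 of them pseudogenes, and reads can be shared with such near-identical copies. No entry carries a symbol of the form Slc2a3-ps. Reads with more than 1 place in the genome were 6.34 to 6.79% in PO libraries and 6.57 to 6.93% in control odor libraries.

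Set against each other within a library, so that library size cancels, the ratio of the 2 genes differed more between the odors than either gene did alone, which follows from their opposite directions. Per 100 Gapdh counts there were 0.0224 Slc2a3 counts in P8, 0.122 in P13 and 0.0162 in P14, against 0.192 in C2, 0.205 in C3 and 0.266 in C4. The groups did not overlap, and P13 was again nearest to the controls. That separation of the ratio is fixed by the 2 genes, each of which separated the groups, in opposite directions. Of all genes tested, 13% separated them as Gapdh did and 13.2% as Slc2a3 did. The mean was 0.0534 ± 0.0592 after PO and 0.221 ± 0.0396 after control odor (SD, n = 3 each), a control mean 4.13 times the PO mean. Per length, Gapdh FPKM was 5196 times the Slc2a3 FPKM in P8, 954 times in P13 and 7158 times in P14, against 606 times in C2, 566 times in C3 and 437 times in C4. The fold rested on P13: without P13 the control mean was 11.5 times the PO mean, and without any other single library it was 3.07 to 4.41 times.

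Gapdh served as a PCR reference gene in other rats of the study, at other exposure times, so no PCR result is measured here. With that use in view, the whole table was also scaled by the Gapdh counts of each library, an alternative added after the data had been seen. Since Gapdh was selected as higher after PO, this scale must shift all other genes lower, and the values that follow give the size of that shift and are no further finding. On that scale the median log2 fold change over all genes was -0.27, and 13.1% of genes lay above 0, compared with 48.0% under TMM. The log2 fold change of Slc2a3 was -2.07, which is -1.80 from that median, as compared with -1.84 from the median under TMM. edgeR then called 4169 genes, 29 higher and 4140 lower after PO, as compared with 24 higher and 35 lower under TMM. Scaled by library size alone, 16 genes were called higher and 87 lower, Gapdh had a log2 fold change of 0.20, and the median gene lay at -0.08. None of the 11 other PCR reference genes that were listed had an ID, so their spread is not given here.

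Across rats, the spread of each gene was read against that of all genes tested. Within the control odor rats alone, where the difference between the odors plays no part, the coefficient of variation (CV, the SD as a percent of the mean) of Gapdh was 2.62%, larger than that of 9.35% of the 16685 genes and of 25.4% of the 71 genes with a mean CPM within a factor of 2 of its own. Within the PO rats it was 6.54%, larger than that of 66.2% of those 71 genes. Over all 6 libraries it was 11.0%, larger than that of 81.7% of those 71 genes, whose median was 6.40%. The pooled value contains the difference between the odors on which Gapdh was selected. The values within a group do not contain it. They are still not free of that choice, since a call weighs the difference against the spread within groups.

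Slc2a3 had a higher CV among the PO rats than among the controls, a difference that was not tested. Its CV was 106% in the PO rats, larger than that of 99.2% of the 3524 genes with a mean CPM over the 6 libraries within a factor of 2 of its own, whose median was 20.4%. In the control odor rats it was 20.6%, larger than that of 56.7% of those genes, whose median was 18.6%. The mean of Slc2a3 in the PO rats lay below that band, so like level was also taken from the mean within the group, an alternative added after the data had been seen. The CV was then larger than that of 99.4% of 3104 genes in the PO rats (median 27.6%) and of 69.7% of 3707 genes in the control odor rats (median 15.4%). Over all 6 libraries the CV was 71.5%. The biological CV that edgeR fits within groups was 0.56 for Slc2a3, above 97.9% of the genes of like level over the 6 libraries, and 0.0713 for Gapdh, above 54.9% of the genes of its level. The PO value of Slc2a3 rests on counts of 11, 50 and 7.

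**Figure D3:**
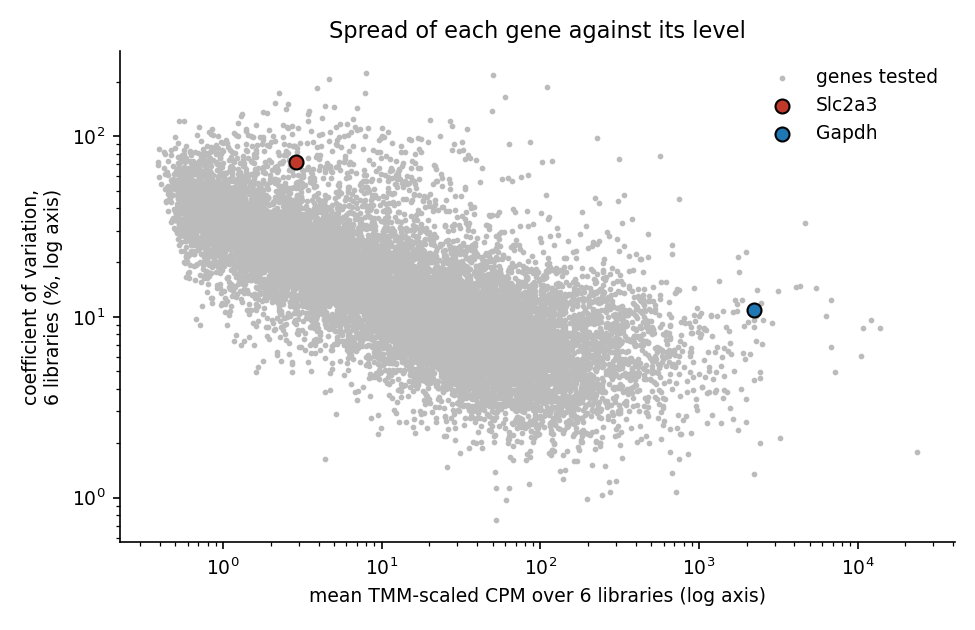
Coefficient of variation over the 6 libraries against the mean TMM-scaled CPM for the 16685 genes tested (grey), both axes on a log scale, with Slc2a3 (red) and Gapdh (blue) marked. Slc2a3, at 71.5%, lies near the upper edge of genes of like level, and Gapdh, at 11.0%, lies above the median of 6.40% for genes of its level.

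The low level of Slc2a3 in P8 and P14 went together with other measures of these libraries. The share of clean reads crossing a splice junction was 25.14% in P8, 25.76% in P13 and 24.84% in P14, against 25.84% in C2, 25.79% in C3 and 25.73% in C4. P8 and P14 stood below the other 4 libraries, and P13 lay within the range of the controls, whereas for Slc2a3 it lay below each of them. The share of reads mapped was also lowest in P8 (94.63%) and P14 (94.73%), by small margins, against 94.83% in P13 and 94.78 to 95.05% in control odor libraries. The share of bases called at Q30 did not separate P8 and P14, with 93.49 to 93.62% in PO libraries and 93.38 to 93.71% in control odor libraries. The part of the splice share or the mapped share in the Slc2a3 result was not tested.

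**Figure D4:**
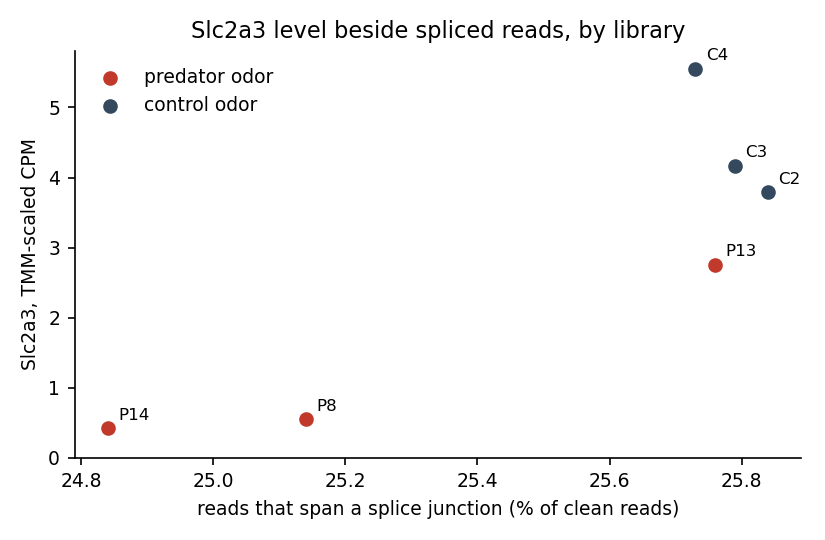
Slc2a3 level in TMM-scaled CPM against the percent of clean reads that span a splice junction, 1 point per library, with PO in red and control odor in dark blue. P14 and P8 lie at the lower left, at 24.84 and 25.14% of spliced reads, and P13 lies with the 3 controls at 25.73% or more.

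Markers of other cell types also differed between the punches. The markers with an ID have one because the study called them in these libraries. That choice favors a difference between the odors in each, but does not fix which way. Listed markers without an ID were not read, so the directions below cover called markers only. All 9 named markers of leptomeningeal fibroblasts, of 12 listed, lay lower after PO, and their summed level was 35.0 to 75.0 CPM after PO and 148 to 227 CPM after control odor. The only count of 0 among the named markers was that of Cdh1, which encodes the adhesion protein E-cadherin, in P13. All 5 named oligodendrocyte markers, of 9 listed, lay higher after PO, with a sum of 282 to 360 CPM after PO and 158 to 219 CPM after control odor. The 4 named markers of ependyma and choroid plexus, of 9 listed, also lay higher, with 47.2 to 81.4 CPM after PO and 26.6 to 32.3 CPM after control odor, and the 2 named markers of microglia and macrophages, of 6 listed, lay lower, with 9.15 to 18.3 CPM after PO and 30.8 to 35.5 CPM after control odor. In the edgeR fit, 2 of the 9 leptomeningeal, 1 of the 5 oligodendrocyte, 0 of the 4 ependyma and choroid plexus and 1 of the 2 microglia and macrophage markers were called. Of all genes tested, 0.354% were called. Every PO library lay above every control odor library for 13% of all genes and below for 13.2%. The part of these markers in the levels of Slc2a3 and Gapdh was not tested.

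Over the 6 libraries the levels of Slc2a3 and Gapdh ran in opposite order, with a Pearson r of -0.94 on log2 CPM, which the choice of the 2 genes in part fixes. After each group's mean was subtracted the r was -0.81. Slc2a3 was lowest in P14, then in P8, P13, C2, C3 and C4, and Gapdh was lowest in C2, then in C3, C4, P13, P8 and P14. These 6 points share their libraries and depth, and the values are a description.

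The named genes most like Slc2a3 by Pearson r of log2 CPM over the 6 libraries were LOC103689965 (r = 0.99), Srsf6 (r = 0.98), Mmp14 (r = 0.97), Sun1 (r = 0.96) and Camk2a (r = 0.95). Srsf6 encodes an SR protein that takes part in pre-mRNA splicing, Mmp14 a membrane-bound matrix metalloproteinase, Sun1 an inner nuclear membrane protein and Camk2a the alpha subunit of calcium/calmodulin-dependent kinase II. Only 169 of the genes compared had a name, and 5, 10, 22, 54 and 73 of the 16684 genes had a higher r than LOC103689965, Srsf6, Mmp14, Sun1 and Camk2a had. LOC103689965 had 4.50 CPM in P8, 8.22 in P13 and 4.37 in P14, against 10.6 in C2, 11.5 in C3 and 11.3 in C4. Srsf6 had 87.5 CPM in P8, 103 in P13 and 81.7 in P14, against 116 in C2, 117 in C3 and 128 in C4. In both genes P8 and P14 were lowest and P13 lay between them and the controls, a pattern that the choice by r, among genes named because the study called them in this contrast, fixes. After group means were subtracted, 2 of the 5 were still among the 5 named genes most like Slc2a3. The log2 fold change was -0.97 for LOC103689965, -0.41 for Srsf6, -0.76 for Mmp14, -0.54 for Sun1 and -0.39 for Camk2a, each smaller in size than the -1.85 of Slc2a3.

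The named genes most like Gapdh were Gpr137 (r = 0.99), Bola2 (r = 0.99), Gamt (r = 0.99), Mt3 (r = 0.98) and LOC103693210 (r = 0.97). Gamt encodes the methyltransferase that completes creatine synthesis, Mt3 a metal-binding metallothionein of the brain, and Bola2 a protein that works with glutaredoxin in the handling of iron. Gpr137 had 236 CPM in P8, 221 in P13 and 246 in P14, against 192 in C2, 193 in C3 and 197 in C4. Mt3 had 671 CPM in P8, 653 in P13 and 769 in P14, against 521 in C2, 539 in C3 and 554 in C4. The likeness is again fixed by how the genes were chosen, and 11 named genes had a Spearman rho of at least 0.94 to Gapdh. After group means were subtracted, 3 of the 5 were still among the 5 most like it. The log2 fold changes of the 5 genes ran from 0.27 for Gpr137 to 0.50 for LOC103693210, beside 0.26 for Gapdh. An r of at least 0.95 to Gapdh was held by 235 genes and one to Slc2a3 by 75 genes, so neither set of 5 stands alone.

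**Figure D5:**
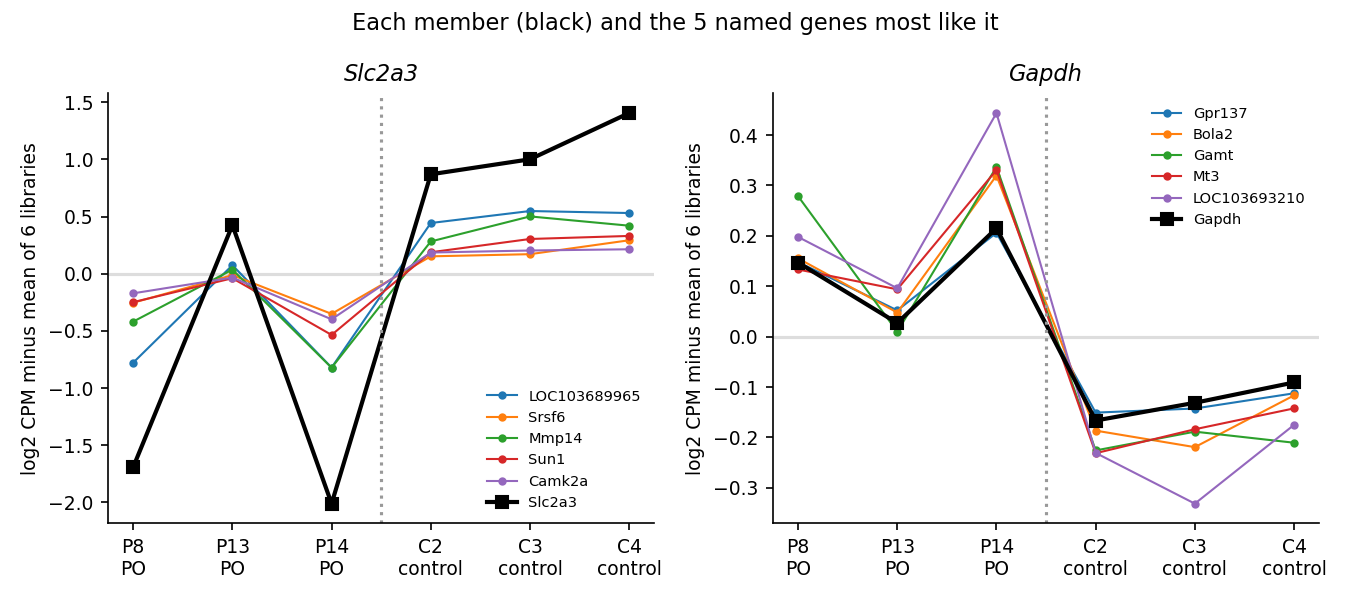
Log2 CPM minus the mean over the 6 libraries for Slc2a3 (left, black) and Gapdh (right, black) and for the 5 named genes most like each, with the PO libraries left of the dotted line and the control odor libraries right of it. In the left panel P8 and P14 lie below P13 for each gene and Slc2a3 has the widest range; in the right panel every PO library lies above every control odor library.

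The 2 genes shared little in the gene ontology table deposited with the series. Of its 1132 terms, 7 list Slc2a3, among them transport, organic substance transport and localization, and 56 list Gapdh, among them neuron apoptotic process, peptidyl-cysteine S-nitrosylation and carbohydrate derivative metabolic process. The root term molecular function was the 1 term that lists both. In RefSeq for GRCr8 both genes lie on the same chromosome with 50 protein-coding genes between them, among which are the glycolytic genes Eno2 and Tpi1; Slc2a3 lies between Nanog and Foxj2, and Gapdh between Iffo1 and Ncapd2.

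For the other genes of glucose use, 75 genes were listed in 5 groups. Of the 14 glucose carriers 1 had an ID, which was Slc2a3, and of the 22 glycolysis genes 1 had an ID, which was Gapdh. The 15 genes of pyruvate and lactate handling, the 11 regulators and the 13 genes of the pentose phosphate pathway and glycogen had none. The remaining 73 genes are not analysed here, so that no statement on the pathway beyond its 2 measured members can be made.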

How the data were processed

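RNA from VMH punches of 3 PO and 3 control odor rats was sequenced in pairs of 150-base reads. Per the methods and the submitters' processing notes, the authors aligned clean reads to Rnor_5.0 with HISAT2, and HTSeq gave the reads of each gene. The deposited raw counts (unnormalized reads per gene), the deposited FPKM (counts per total count and gene length) and the deposited percent of reads mapped, spliced or of high quality were used. FPKM equalled count divided by the table's column total and by a whole-number length. The authors' fold change and p-value columns were not used. The paper states that HTSeq was run in union mode. Its strand setting, and whether reads with several places were counted, are not given in the sources used here. How reads over antisense genes or from repeated places were handled is therefore not known.

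Names came from the gene name column of the authors' called-gene table and from a table of the paper, 171 IDs in all. The members and lists were chosen with earlier results of these data known. Counts were filtered with filterByExpr, scaled with TMM and fitted with edgeR 4.0.16 (robust quasi-likelihood), with Benjamini-Hochberg adjustment over all genes tested. The standard error of a fold change is its size divided by the square root of F. DESeq2 1.42.0 and limma 3.58.1 (voom) were alternatives, in R 4.3.3. The edgeR, DESeq2 and voom steps were tested on simulated data. Log2 CPM used a prior count of 2. Named genes were the members, the listed genes called (or the 4 lowest p), and the 5 named genes with the highest Pearson r to each member. CV and intervals were computed in Python 3.11.15 with SciPy 1.17.1. The p-values set the difference between the groups against the spread between rats, which each fit estimates in part from other genes. Neither a genome of the files' build nor a protein table was used here, and no sequence is printed.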

Additional observations from a re-analysis of the deposited data

How the results depend on the processing

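The direction of both genes was the same under each of the 17 alternatives run for Slc2a3 and the 16 run for Gapdh. Both genes were chosen on this contrast and their groups did not overlap, so that result was largely fixed in advance and is no support. Leaving out 1 library, the log2 fold change lay between -3.18 and -1.46 for Slc2a3, with the low end reached without P13, and between 0.22 and 0.32 for Gapdh. Leaving out 1 library, the genes called by edgeR ranged from 9 to 266, as compared with 59 with all 6, with 9 without C2, C4 or P14, 15 without C3, 135 without P8 and 266 without P13; the glucose use genes called ranged from 0 to 2. Both were called by edgeR without P13 (among 266 of 16989 genes tested) and by DESeq2 on all 6 libraries (among 865 of 13707). With no filter on low counts 1, Gapdh, was called (among 433 of 22185). The cause was not tested. Over the whole table, edgeR called 103 genes with library size alone, 433 with no filter, 2 without the robust fit, 26 with a fold of at least 1.5 and 4169 with scaling by Gapdh counts (chosen after the data had been seen), while DESeq2 called 865 and limma voom 3. Among the 5 named genes most like Slc2a3, 2 remained after group means were subtracted, and for Gapdh 3 remained. By Spearman's rho the same numbers remained, but ranks over 6 libraries tie, so those counts depend on how ties were cut. At the highest rho to Slc2a3 stood 6 named genes, Srsf6, Sun1 and Camk2a among them. For Gapdh 11 named genes had a rho of at least 0.94, and these included all 5 most like it by Pearson r. The CV of Gapdh over 6 libraries was 8.20% with library size alone and 8.20% with FPKM, as compared with 11.0% with TMM. No paired analysis was run, because each rat was given 1 odor only and the labels give no pairing of rats. With 7 to 50 counts of Slc2a3 in the PO rats, depth limits its level there.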
